A study of Mus musculus with 4 samples.

Results

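Endothelial cells line blood and lymph vessels, and a small number of them stayed in mouse lung libraries that had been sorted for alveolar epithelial type 2 (AT2) cells. They were chosen by their own RNA: a cell had at least 500 genes, at most 20% mitochondrial unique molecular identifiers (UMIs), a UMI of 3 or more of the 6 endothelial genes Cldn5, Ramp2, Plvap, Tmem100, Cdh5 and Pecam1, and UMIs of fewer than 3 of the 4 matrix genes Col1a1, Col1a2, Col3a1 and Dcn. This rule found 92 of 10756 cells (0.855%, 95% exact Clopper-Pearson interval 0.690 to 1.05). There were 24 of 2993 cells in the 12-month bleomycin library, 33 of 2624 in 3-month bleomycin, 23 of 2745 in 12-month PBS and 12 of 2394 in 3-month PBS.

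The study compared AT2 cells of young and older mice after lung injury. All mice carried Sftpc-creER;Rosa26-mTmG, in which a tamoxifen-dependent Cre, expressed from the AT2 gene Sftpc, switches a membrane reporter to green, and all were given 4 doses of tamoxifen. At 14 days after tamoxifen, mice aged 12 or 3 months had bleomycin at 0.8 U/kg, or PBS, put into the trachea. Cells that were GFP-positive and lacked CD45 (the product of Ptprc, on leukocytes) and CD31 (the product of Pecam1, on endothelium) were sorted from 3 pooled mice per group and sequenced on the 10x Genomics 3' platform. The 12-month bleomycin and 3-month bleomycin groups are labelled day 30, and the 12-month PBS and 3-month PBS groups day 0; the effect of bleomycin and that of the harvest day cannot be told apart. With 1 library per group, no test between groups was possible. Every interval below is an exact 95% interval for counting error and takes in no variation between mice.

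The capillary network of the alveolus has aerocytes, large flat Car4-positive cells at the gas-exchange surface, and general capillary cells, which express Gpihbp1 and Aplnr and can renew both kinds. Larger arteries, veins and lymphatics have endothelium with their own genes, and lung capillaries of mice can carry MHC class II molecules, which present peptides to CD4+ T cells. Bleomycin injures alveolar epithelium and the capillaries beside it.

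Depth differed between libraries. Median UMIs per endothelial cell were 5850.5 in 12-month bleomycin, 3486 in 3-month bleomycin, 1965 in 12-month PBS and 1630.5 in 3-month PBS, against 12021, 8406.5, 5111.5 and 4564.5 in the AT2 cells of the same libraries (cells with 5 or more of 8 AT2 markers). The endothelial cells summed to 174562, 148759, 69265 and 19525 UMIs, so that 1 UMI was worth 5.73, 6.72, 14.4 and 51.2 CPM (UMIs of a gene scaled to a common library total of summed endothelial UMIs). Libraries shared 7 to 20 cell barcodes per pair. Among these was 1 endothelial barcode, shared by 3-month bleomycin and 12-month PBS, and its partner was not endothelial.

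Some of these cells also held RNA of another cell type. In 12-month bleomycin, 7 of the 24 also met a leukocyte rule (5 macrophage, 2 T or NK and 3 B or plasma), and 11 had a UMI of Ptprc. None of the 33, 23 and 12 cells of the other libraries did either. UMIs of 8 AT2 genes (Sftpc, Sftpa1, Sftpb, Sftpd, Lamp3, Slc34a2, Napsa and Abca3) made up 5% or more of the UMIs of 4, 3, 1 and 0 cells, which reached 9.16 to 26.6% and had a median of 12075 UMIs, against 0.959 to 3.51% and 2957 UMIs in the other 84. Any cell with a leukocyte rule met, a Ptprc UMI or 5% AT2 genes is called mixed below. Genes of pericytes and smooth muscle are not part of this definition. There were 14, 3, 1 and 0 mixed cells in 12-month bleomycin, 3-month bleomycin, 12-month PBS and 3-month PBS, which left 10, 30, 22 and 12. Ratios of the lists and of most genes described below are given with and without them.

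**Figure D1:**
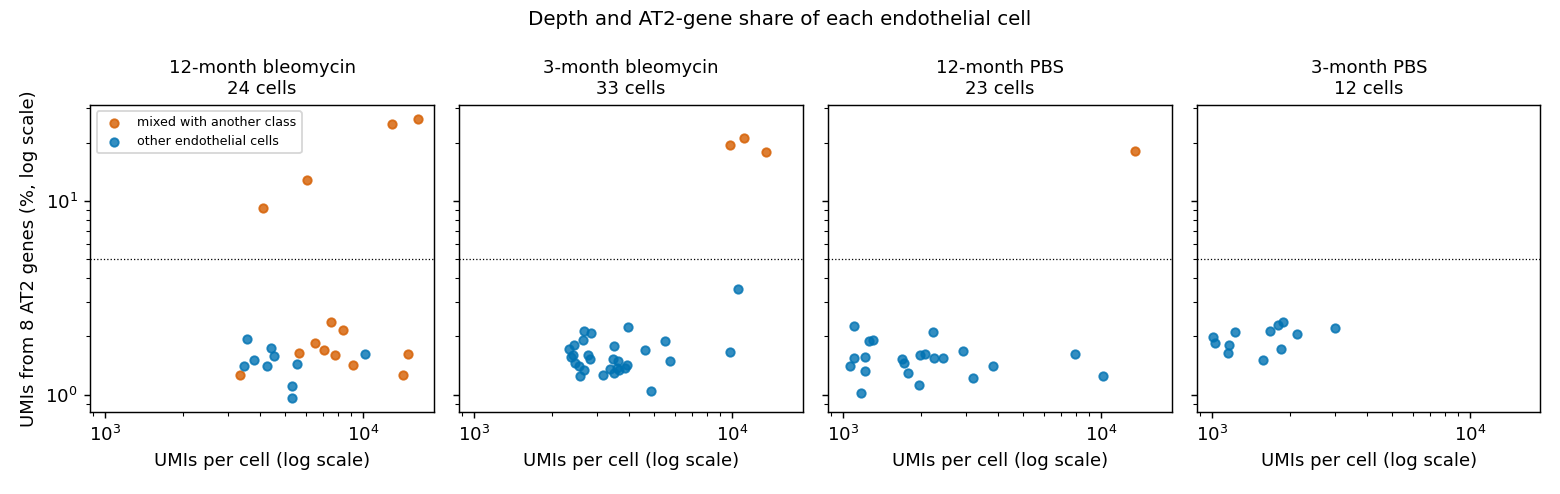
Each point is 1 endothelial cell, with its UMIs on the horizontal axis and the percent of its UMIs from 8 AT2 genes on the vertical axis, both log scales, in a panel per library. Cells mixed with another class are orange, others are blue, and the dotted line marks 5%. The 8 cells above the line are all mixed and reach 26.6%; the 3-month PBS library has none.

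Over all endothelial cells, mixed ones included, the median AT2 background was low, and highest in 3-month PBS. The median AT2-gene share per endothelial cell was 1.63% in 12-month bleomycin (interval 1.43 to 1.94), 1.56% in 3-month bleomycin (1.43 to 1.78), 1.56% in 12-month PBS (1.40 to 1.63) and 2.02% in 3-month PBS (1.73 to 2.20). It was 22.2, 22.6, 20.6 and 17.8% in AT2 cells. Macrophages of 12-month bleomycin and 3-month bleomycin, which do not make surfactant, stood at 1.79 and 1.75%, and T or NK cells of 12-month PBS at 1.44%. The barcodes with the highest Scrublet scores were called doublets, 72, 56, 63 and 48 per library, numbers fixed beforehand by an assumed rate. Among them were 1, 2, 0 and 0 of the endothelial cells, which does not measure how many doublets there were.

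The marker number separated these cells from the rest with few between. None of the 6 genes was detected in 10046 cells, 1 in 588, 2 in 29, 3 in 4, 4 in 18, 5 in 35 and all 6 in 36, and 1 cell with 4 was left out for its matrix genes. Just outside the rule, cells with 2 markers had a median of 2 of 25 other pan-endothelial genes; just inside it, cells with 3 had a median of 9. The members had a median of 16 of these 25 genes, between 3 and 23, while AT2 cells had a median of 1 and at most 8. The cells thus carried endothelial genes that the rule had not named.

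Of the genes in the rule, Ramp2, a co-receptor of the adrenomedullin receptor, was found in 88 of 92 cells, Cldn5, a tight-junction protein, in 86, and Cdh5 (VE-cadherin) in 84. Tmem100, a target of BMP signalling in endothelium, was in 66 and Plvap, the diaphragm protein of fenestrae and caveolae, in 63. Pecam1, the sort antigen itself, was detected in 84 of 92 cells, at 521 CPM in 12-month bleomycin, 921 in 3-month bleomycin, 1242 in 12-month PBS and 1536 in 3-month PBS, against 1.61, 1.72, 1.87 and 1.33 CPM in AT2 cells. As Pecam1 is among the 6 genes that chose the cells, its frequency is in part set by that choice.

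Outside the rule, the genes highest over AT2 cells included transcription factors and receptors of endothelium. Sox18, a SoxF factor of vessel development, was detected in 54 of 92 cells, at 115 CPM in 12-month bleomycin, 195 in 3-month bleomycin, 505 in 12-month PBS and 819 in 3-month PBS, and at no more than 0.216 CPM in AT2 cells. Foxf1, a factor needed for lung capillaries, was in 75 cells at 344, 726, 1097 and 1844 CPM, and its neighbour Fendrr, a long noncoding RNA, in 35. Others were Clec1a and Clec14a (C-type lectins), S1pr1 (the sphingosine-1-phosphate receptor), Calcrl (the receptor that pairs with Ramp2) and Eng (endoglin, a co-receptor of BMP and TGF-beta). Icam2, Cyyr1, Tspan18, Nsg1 and Tbx3 were also among them. Lyve1, used below as a lymphatic gene, was high on this list too, and was in 35 cells. Ppbp, a platelet chemokine, was on this list through 30 UMIs in 1 cell of 12-month PBS. All 6 platelet genes examined were detected in that library.

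Many endothelial genes are bound by ETS factors, and a short ETS-type word was searched for near the starts of these members. The letters AGGAAG, on either strand, occurred in 13 of 19 promoters (68.4%) that the reference held for 17 genes of the rule and the pan-endothelial list, beside 35.4% of all 32851 promoters of the same length, from 250 bases before to 50 after the start (RefSeq, GRCm38.p6). Only 1 of the 6 rule genes, Cldn5, was among them, and its window has no match. The promoters of Emcn (endomucin; chr3:137340828-137341127, plus strand) and Eng (chr2:32646345-32646644, plus strand) are shown because each holds the word in both orientations, printed 5' to 3' with matches in capitals. A match is a description of the letters and not a measured binding site.
Emcn: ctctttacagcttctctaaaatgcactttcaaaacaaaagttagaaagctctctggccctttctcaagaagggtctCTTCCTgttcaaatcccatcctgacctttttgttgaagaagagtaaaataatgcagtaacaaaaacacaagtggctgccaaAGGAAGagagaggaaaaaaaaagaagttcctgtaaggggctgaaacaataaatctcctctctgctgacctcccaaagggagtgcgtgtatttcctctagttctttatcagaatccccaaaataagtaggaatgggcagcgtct
Eng: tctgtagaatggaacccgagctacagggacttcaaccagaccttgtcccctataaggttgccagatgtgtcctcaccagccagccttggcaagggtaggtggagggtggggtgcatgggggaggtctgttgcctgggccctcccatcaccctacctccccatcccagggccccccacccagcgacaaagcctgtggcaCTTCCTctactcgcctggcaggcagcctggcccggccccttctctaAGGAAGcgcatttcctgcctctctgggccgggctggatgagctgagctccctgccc

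Several kinds of vessel could be told apart within the 92 cells. A cell was called aerocyte-like, general capillary-like, arterial-like, venous-like or lymphatic-like if it had 2 or more genes of that list and more than of any other; rule genes and genes on several lists were left out, which left 15, 11, 14, 13 and 14 genes. Over all libraries 20 cells were aerocyte-like, 33 general capillary-like, 11 arterial-like, 15 venous-like and 6 lymphatic-like, and 7 met the definition of no class.

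Genes known for each kind were most frequent in their class, which follows from how the classes were made. Car4, a carbonic anhydrase of aerocytes, was detected in 19 of 20 aerocyte-like cells, with 293 UMIs, in 6 of 33 general capillary-like cells and in 0 of 15 venous-like cells. Gpihbp1, which carries lipoprotein lipase to the capillary lumen, was in 30 of 33 general capillary-like cells, and also in 7 of 11 arterial-like, 4 of 6 lymphatic-like, 6 of 20 aerocyte-like and 3 of 15 venous-like cells. Gja5 (connexin 40) was in 8 of 11 arterial-like cells. Slc6a2, a noradrenaline transporter of lung veins, and Ackr1, the venular chemokine receptor, were in 5 and 7 of 15 venous-like cells, and neither was in any aerocyte-like, general capillary-like or lymphatic-like cell.

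Vwf (von Willebrand factor), which was on several lists and so not used, was in 15 of 15 venous-like, 9 of 11 arterial-like, 5 of 33 general capillary-like and 0 of 20 aerocyte-like cells. Plvap, also not used for classes, was in 26 of 33 general capillary-like and 4 of 20 aerocyte-like cells. Tmem100 was in 17 of 20 aerocyte-like and 29 of 33 general capillary-like cells and in 0 of 6 lymphatic-like cells. These 3 genes were on the general capillary list and were left out when cells were classed.

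**Figure D2:**
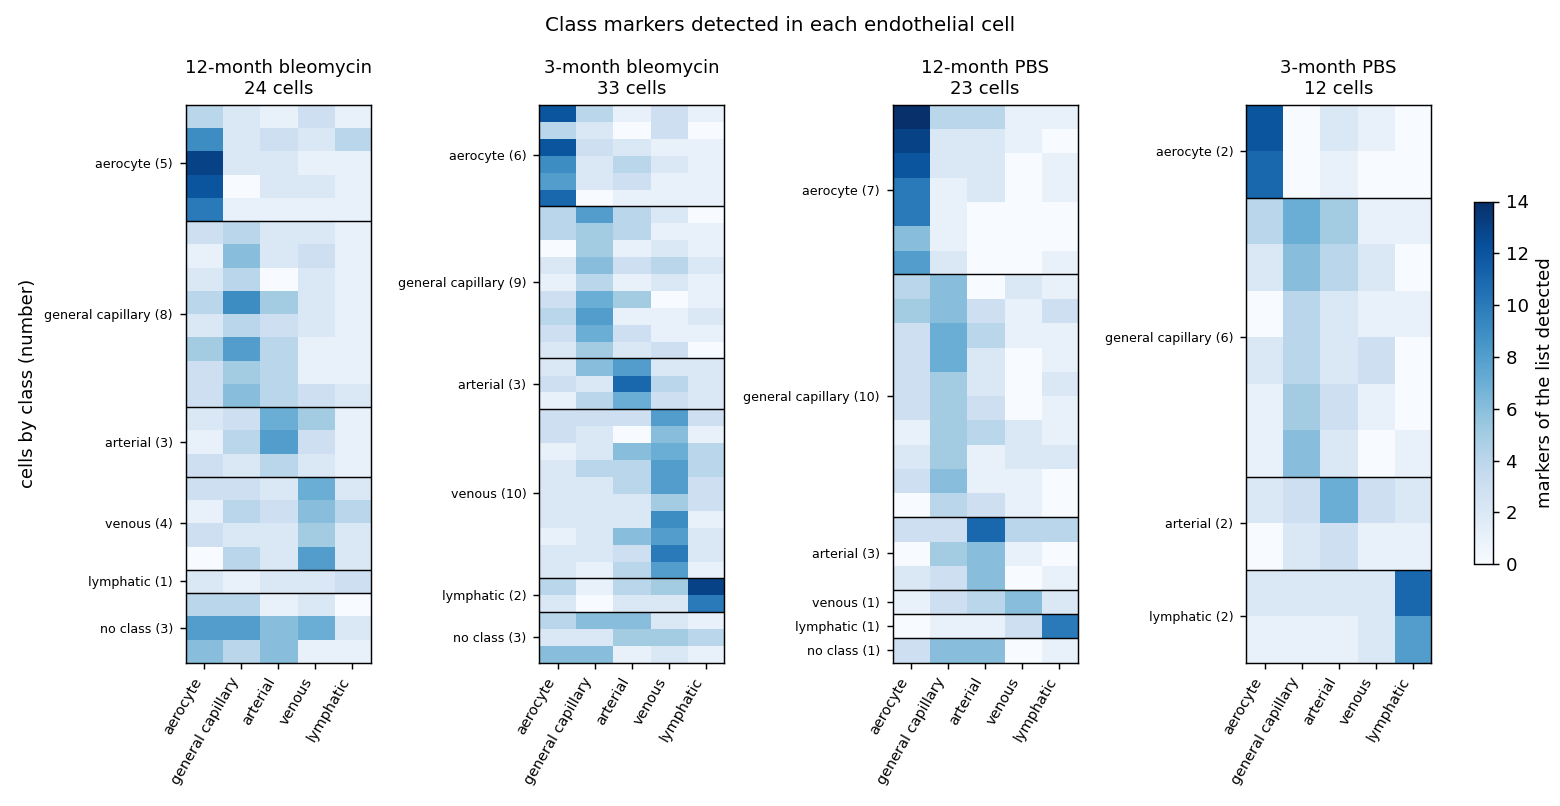
Each row is 1 endothelial cell, grouped by class within its library, and each column is a list of class genes; the colour gives how many genes of the list were detected, from 0 to 14. Aerocyte-like cells have up to 14 of their list, and the 10 venous-like cells of 3-month bleomycin contrast with 1 in 12-month PBS and 0 in 3-month PBS.

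The classes were spread unevenly. In 12-month bleomycin there were 5 aerocyte-like, 8 general capillary-like, 3 arterial-like, 4 venous-like and 1 lymphatic-like cells; in 3-month bleomycin 6, 9, 3, 10 and 2; in 12-month PBS 7, 10, 3, 1 and 1; and in 3-month PBS 2, 6, 2, 0 and 2. Venous-like cells made up 16.7% of the endothelial cells in 12-month bleomycin (4.74 to 37.4), 30.3% in 3-month bleomycin (15.6 to 48.7), 4.35% in 12-month PBS (0.110 to 21.9) and 0% in 3-month PBS (0 of 12, which allows a share up to 26.5%). The intervals of the libraries overlapped. Over both ages they were 14 of 57 cells with bleomycin (24.6%) and 1 of 35 with PBS (2.86%), and 11 of 40 and 1 of 34 without mixed cells. These cells were pooled from 2 libraries on each side, of different age and depth, and are not replicates of a treatment.

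The venous genes Slc6a2 and Ackr1, which helped to define the class, had UMIs in the bleomycin libraries. Slc6a2 had 3 UMIs in 2 cells of 12-month bleomycin and 16 in 4 of 3-month bleomycin, and Ackr1 had 11 in 2 and 10 in 5, while both were at 0 in 12-month PBS and in 3-month PBS. Without mixed cells Ackr1 was at 0 in 12-month bleomycin and had 4 UMIs in 4 cells of 3-month bleomycin. The venous list as a whole was not confined to bleomycin, with sums of 2538, 3758, 1704 and 2049 CPM. The bleomycin cells were the deeper ones: after thinning every cell to 1000 UMIs, Slc6a2 was left in 1, 2, 0 and 0 cells. Over 6 other settings (thinning, other class lists, 3 markers, mixed cells left out), 12-month bleomycin kept 2 to 4 venous-like cells, 3-month bleomycin 8 to 10, 12-month PBS 0 or 1 and 3-month PBS 0. Not all settings kept all cells. Thinning to 2000 UMIs kept 24, 33, 10 and 2 endothelial cells, and leaving out mixed cells 10, 30, 22 and 12. A count of 0 in 3-month PBS thus rested on as few as 2 cells.

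Ccl21a, the chemokine that draws dendritic cells and T cells into lymphatics, had very high counts in a few cells. It had 1172 UMIs in 4 cells of 3-month bleomycin, where 2 cells were lymphatic-like. There were 145 in 1 cell of 12-month PBS and 264 in 2 cells of 3-month PBS. These counts are per library and are not split by class. None was seen in the 24 cells of 12-month bleomycin. Near-identical copies of this gene exist, so its count is uncertain. Prox1, the factor that sets lymphatic identity, was found in 4 of 6 lymphatic-like cells and in no other class, and the 1 such cell of 12-month bleomycin had neither Prox1 nor Mmrn1, so that its class is not borne out by them. Lyve1, also a gene of the lymphatic list, was in 35 of 92 cells, so that most cells with it were outside this class.

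MHC class II RNA differed more between the PBS libraries than any other list with 5 or more genes tested. The list holds H2-Aa, H2-Ab1 and H2-Eb1 (chains of the molecule), Cd74 (the invariant chain), H2-DMa and H2-DMb1 (which load peptide), H2-Oa, and Ciita, the factor that switches these genes on. None of them was used by the rule or the classes. The promoters of H2-Aa (chr17:34287774-34288073, minus strand), H2-Eb1 (chr17:34305617-34305916, plus strand) and H2-DMb1 (chr17:34152941-34153240, plus strand) are shown because class II promoters are known for a conserved module that ends in a CCAAT box. CCAAT, on either strand, was in 5 of 6 promoters of 5 matched class II genes (83.3%), beside 37.4% of all promoters, and is in capitals (ATTGG on the opposite strand). It lies 48 bases upstream of the start in H2-Aa, 59 and 35 in H2-Eb1 and 61 in H2-DMb1.
H2-Aa: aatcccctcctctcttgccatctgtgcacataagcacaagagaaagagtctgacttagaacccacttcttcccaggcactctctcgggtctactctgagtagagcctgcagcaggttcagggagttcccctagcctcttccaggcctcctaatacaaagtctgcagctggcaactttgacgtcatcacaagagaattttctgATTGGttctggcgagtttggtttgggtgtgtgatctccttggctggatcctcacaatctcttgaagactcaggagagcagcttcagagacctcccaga
H2-Eb1: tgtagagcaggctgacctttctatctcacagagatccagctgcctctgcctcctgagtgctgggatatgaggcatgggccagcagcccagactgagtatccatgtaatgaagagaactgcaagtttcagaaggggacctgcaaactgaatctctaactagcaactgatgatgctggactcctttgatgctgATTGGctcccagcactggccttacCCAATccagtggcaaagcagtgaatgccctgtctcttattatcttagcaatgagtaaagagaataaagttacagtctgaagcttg
H2-DMb1: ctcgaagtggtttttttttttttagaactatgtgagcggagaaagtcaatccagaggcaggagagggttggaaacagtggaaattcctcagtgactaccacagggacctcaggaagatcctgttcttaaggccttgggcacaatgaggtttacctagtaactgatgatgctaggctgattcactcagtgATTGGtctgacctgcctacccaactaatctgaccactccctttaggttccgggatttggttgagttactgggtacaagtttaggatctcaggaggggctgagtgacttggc

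H2-Aa (chr17:34282744-34287823, minus strand) had 491 UMIs in 23 of 24 cells of 12-month bleomycin (2813 CPM), 124 in 20 of 33 cells of 3-month bleomycin (834 CPM), 220 in 18 of 23 cells of 12-month PBS (3176 CPM) and 1 UMI in 1 of 12 cells of 3-month PBS (51.2 CPM). Both 12-month libraries were high and 3-month PBS was lowest. AT2 cells, which also carry class II, were at 3291, 2420, 2376 and 1784 CPM. H2-Ab1 followed at 2452, 726, 2685 and 205 CPM, Cd74 at 8541, 2682, 7753 and 1178, and H2-DMa at 264, 114, 621 and 0.

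In PBS-treated mice, 5 of the 5 class II genes tested were higher at 12 than at 3 months, where 7.67% of the 704 genes tested were called higher (2-fold or more, 20 or more UMIs over both libraries, and an interval of the ratio that leaves out 1). The log2 ratio was 5.37 for H2-Aa (3.46 to 11.3), 3.55 for H2-Ab1 (2.33 to 5.60) and 2.69 for Cd74 (2.12 to 3.39). H2-DMa had 43 UMIs in 12-month PBS and 0 in 3-month PBS. Against a floor of 3 UMIs in the library this is 4.04-fold (interval from 3.15-fold). The median over the list was 3.55, and 0.41 for the same genes in AT2 cells. The median of all 704 genes was -0.00.

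The level of AT2 RNA in these cells can be set beside this. In cells that were not mixed, the AT2-gene share was 7.11, 8.33, 7.41 and 11.1% of that in AT2 cells, which scales the H2-Aa of AT2 cells to 234, 202, 176 and 198 CPM. Measured H2-Aa in these endothelial cells was 1548 CPM in 12-month bleomycin, 447 in 3-month bleomycin, 3105 in 12-month PBS and 51.2 in 3-month PBS. H2-Aa thus lay above the AT2 background in the libraries other than 3-month PBS. There it was 1 UMI, too few to place it below or above that background. After thinning to 1000 UMIs per cell H2-Aa was detected in 18 of 24, 16 of 33, 16 of 23 and 1 of 12 cells.

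The class II level differed between the vessel classes, most of which held few cells. In 12-month PBS, all 10 general capillary-like cells had 10 or more class II UMIs, with a lowest, median and highest value of 12900, 20946 and 36451 CPM of the cell, while 1 of 7 aerocyte-like cells did (0, 791 and 16429 CPM). The 3 arterial-like cells were at 13494 to 31668 CPM, the 1 venous-like cell at 44275 and the 1 lymphatic-like cell at 685. In 3-month PBS the 6 general capillary-like cells were at 814, 2228 and 3876 CPM, below every general capillary-like cell of 12-month PBS, and both aerocyte-like cells had 0.

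With bleomycin the general capillary-like cells reached lower values than those of 12-month PBS. The 9 of 3-month bleomycin had a lowest, median and highest value of 287, 9313 and 20855 CPM, and the 8 of 12-month bleomycin 1316, 18395 and 27388, of which 2 were not mixed. Aerocyte-like cells of 3-month bleomycin had a median of 885 CPM (6 cells), and 532 in the 4 not mixed. Summed, they were at 6092 CPM, and at 586 without the mixed cells. Venous-like cells of that library had a median of 1351 (10 cells). In 12-month bleomycin the 5 aerocyte-like cells had a median of 7844 CPM, and 2 of them were mixed. Summed, they were at 18643 CPM, beside 18302 for the general capillary-like cells. Without mixed cells the medians were 1972 CPM in 3 aerocyte-like cells and 14352 in 2 general capillary-like cells. The aerocyte-like median was the lower of the 2 capillary kinds in all 4 libraries, but on few cells. In 3-month PBS it rested on 22 UMIs in 6 general capillary-like cells and 0 in 2 aerocyte-like cells.

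**Figure D3:**
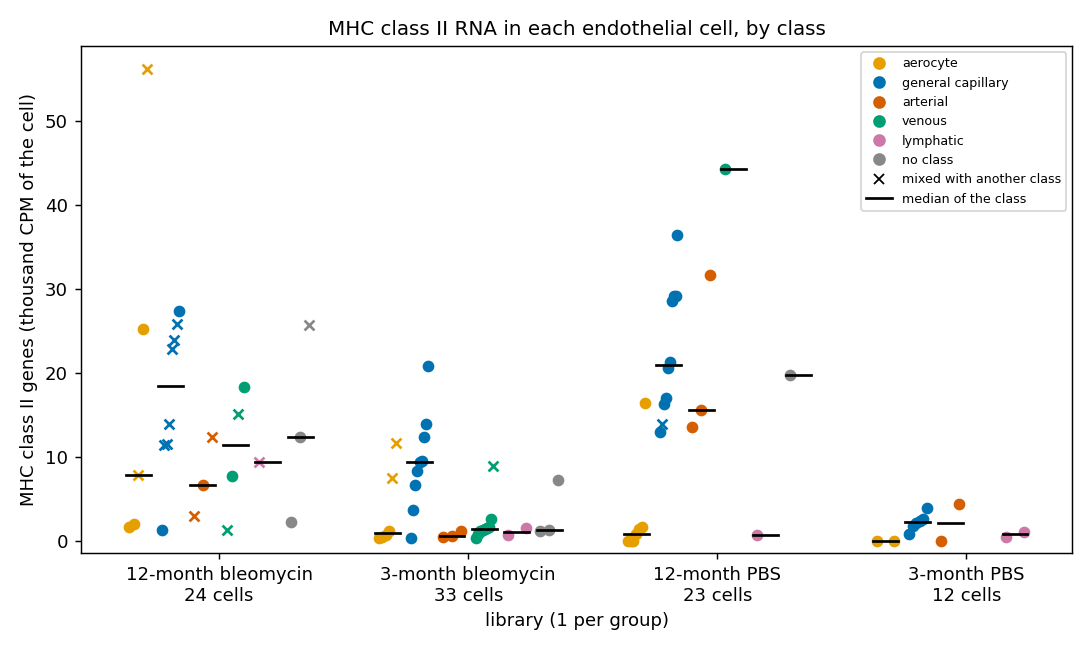
The 8 MHC class II genes summed in each endothelial cell, in CPM of the cell divided by 1000, by library along the horizontal axis and by class in colour; bars are class medians and crosses are mixed cells. General capillary-like cells of 12-month PBS (median 20946 CPM) lie above all those of 3-month PBS (median 2228), and the aerocyte-like medians of both 3-month libraries and of 12-month PBS lie below 1000.

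The bleomycin libraries differed by age in the same direction. Between 12-month bleomycin and 3-month bleomycin, 5 of 6 class II genes tested were higher (5.03% of 2567 genes were), with a median log2 ratio of 1.71, and 1.46 without mixed cells. Between 3-month bleomycin and 3-month PBS, 3 of 4 were higher (5.28% of 1440 genes were), with a median of 1.41, and 1.08 without mixed cells. The 3-month libraries also differed in the vessel classes they held. Between 12-month bleomycin and 12-month PBS, 1 of 6 was higher and 1 lower (7.63% and 11.1% of 1887 genes were), with a median of -0.16, and -1.03 without mixed cells.

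H2-Eb1 stood apart from the other class II genes. It had 164 UMIs in 20 cells of 12-month bleomycin (939 CPM), against 3 in 1 cell of 3-month bleomycin, 4 in 3 cells of 12-month PBS and 0 in 3-month PBS, although H2-Aa was plentiful in 12-month PBS. AT2 cells showed the same, at 532, 35.3, 29.9 and 23.5 CPM. Without mixed cells H2-Eb1 had 24 UMIs in 8 of 10 cells of 12-month bleomycin (476 CPM), against 0 in 3-month bleomycin, 3 in 2 cells of 12-month PBS (53.9 CPM) and 0 in 3-month PBS.

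Of the MHC class I genes, whose products present peptides to CD8+ T cells, H2-D1 and H2-Q4 were called lower with bleomycin at both ages. H2-D1, a class I heavy chain, was detected in every endothelial cell, at 4686 CPM in 12-month bleomycin (818 UMIs), 4564 in 3-month bleomycin (679), 14192 in 12-month PBS (983) and 11575 in 3-month PBS (226). Both bleomycin libraries lay below both PBS libraries. The log2 ratio was -1.60 at 12 months (-1.73 to -1.46) and -1.34 at 3 months (-1.56 to -1.12), and -1.53 and -1.21 without mixed cells. In AT2 cells H2-D1 went the other way, with log2 ratios of 0.69 and 0.88.

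Of the class I list, 4 of 14 genes tested were lower and 0 higher at 12 months (H2-D1, H2-Q4, H2-T23 and Tap2, the peptide transporter subunit), where 11.1% of all genes tested were lower, and 4 of 9 were lower and 0 higher at 3 months (H2-D1, H2-K1, B2m and H2-Q4), where 6.67% of all genes tested were lower. The list medians were -0.54 and -1.18, and -0.90 and -1.01 without mixed cells, beside -0.06 and -0.04 over all genes tested, and 1.04 and 0.73 for the list in AT2 cells. B2m, the light chain, was at 6347 CPM in 12-month bleomycin, 2420 in 3-month bleomycin, 8691 in 12-month PBS and 6044 in 3-month PBS. The near-identical H2 genes share reads, so single members are uncertain.

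The bleomycin comparisons at the 2 ages share no library. Of 1308 genes tested in both, 41 were lower in both, which is 19.5% of the genes lower at 12 months and 42.7% of those lower at 3 months. Of all genes tested, 11.1% were lower at 12 months and 6.67% at 3 months. There were 10 genes higher in both (6.94 and 13.2%), beside 7.63% and 5.28% of all genes tested. PBS cells were the shallower ones in both comparisons, and the part of this in the overlap was not tested. Without mixed cells, 14 of the 41 and 6 of the 10 still differed 2-fold at both ages. The 14 included Gpihbp1, Sox18, Smad6, Tspan7, H2-D1, H2-Q4, Hilpda and Slc43a3. Of the 41 genes, 5 (Cldn5, Ramp2, Plvap, Tmem100 and Cdh5) had chosen the cells, so nothing is read from them, and 36 had not.

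**Figure D4:**
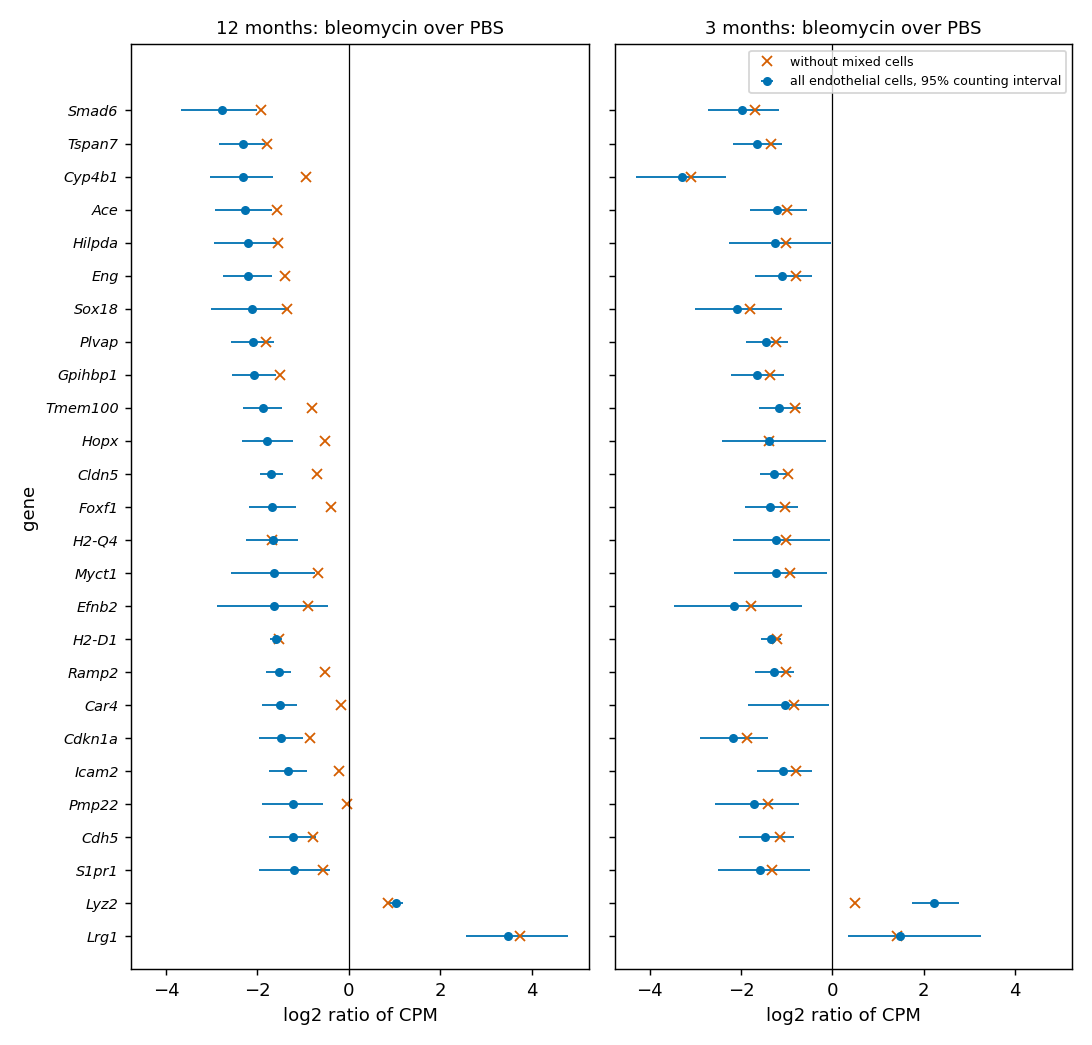
Log2 ratios of CPM, bleomycin over PBS, for the 26 list genes called in the same direction at both ages, at 12 months (left) and 3 months (right). Circles with bars are all endothelial cells with 95% counting intervals, and crosses leave out mixed cells; 24 genes lie left of 0, 5 of which (Plvap, Tmem100, Cldn5, Ramp2 and Cdh5) had chosen the cells, and 2, Lyz2 and Lrg1, lie right of it.

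Smad6, the inhibitory SMAD that BMP signalling induces in endothelium, was among the lowest at 12 months. It had 18 UMIs in 11 cells of 12-month bleomycin (103 CPM), 45 in 20 cells of 3-month bleomycin (303 CPM), 50 in 14 cells of 12-month PBS (722 CPM) and 23 in 8 cells of 3-month PBS (1178 CPM). The log2 ratio was -2.78 (-3.67 to -2.005) at 12 months and -1.98 (-2.72 to -1.17) at 3 months, and -1.93 and -1.69 without mixed cells. In AT2 cells it was -0.28 and 0.19.

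Of the BMP and TGF-beta list, 5 of 10 genes tested were lower at 12 months (Smad6, Eng, Acvrl1, Id3 and Bmpr2) and 4 of 10 at 3 months (Smad6, Smad7, Eng and Tgfb1), with none higher, beside 11.1% and 6.67% of all genes called lower. List medians were -1.09 and -0.92, and -0.40 and -0.65 without mixed cells. Eng (chr2:32646595-32682669, plus strand), whose promoter is printed above, was at 275 CPM in 12-month bleomycin, 699 in 3-month bleomycin, 1270 in 12-month PBS and 1485 in 3-month PBS, with log2 ratios of -2.20 and -1.10, and -1.41 and -0.79 without mixed cells.

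Some general capillary genes were lower too. Gpihbp1 was at 349 CPM in 12-month bleomycin (61 UMIs, 11 cells), 605 in 3-month bleomycin (90, 19 cells), 1473 in 12-month PBS (102, 17 cells) and 1895 in 3-month PBS (37, 9 cells). Its log2 ratio was -2.07 (-2.56 to -1.60) and -1.66 (-2.21 to -1.05), and -1.498 and -1.36 without mixed cells. Of the general capillary list, 7 of 11 tested genes were lower at 12 months, and 5 of 9 lower with 1 higher (Vwf) at 3 months, beside 11.1% and 6.67% of all genes. In both counts 2 of the lower genes, Plvap and Tmem100, had chosen the cells; without them 5 of 9 and 3 of 7 were lower. The list medians were -1.27 and -1.16, and -0.75 and -0.82 without mixed cells, and the 3-month one was 0.079 when cells above the median AT2-gene share of their library were left out. On that subset the 3-month medians of the pan-endothelial list and of the list of flow and tone were above 0 too, at 0.14 and 0.20. The share of general capillary-like cells was 17 of 57 with bleomycin (29.8%) and 16 of 35 with PBS (45.7%), pooled from 2 libraries on each side. Its part in these ratios was not tested.

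Genes of vascular tone and flow sensing were lower at 12 months. Ace, the angiotensin-converting enzyme on lung capillaries, was at 195 CPM in 12-month bleomycin, 672 in 3-month bleomycin, 953 in 12-month PBS and 1536 in 3-month PBS, with log2 ratios of -2.28 and -1.21, and -1.58 and -0.995 without mixed cells. Of this list, 7 of 8 tested genes were lower at 12 months (Ace, Ece1, Edn1, Ednrb, Calcrl, Klf2 and Klf4) and 1 of 8, Ace, at 3 months, beside 11.1% and 6.67% of all genes, with list medians of -1.68 and -0.53. Without mixed cells the medians were -0.65 and -0.22. Klf2, the flow-induced factor, was at 773, 2709, 2469 and 3636 CPM with a log2 ratio of -1.67 at 12 months, and -0.63 without mixed cells.

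The pan-endothelial list had 13 of 23 tested genes lower and 1 higher at 12 months, and 7 of 23 lower and 0 higher at 3 months; of all genes, 11.1% were lower and 7.63% higher at 12 months and 6.67% lower at 3 months. Its medians were -1.08 and -0.55, but -0.30 and -0.23 without mixed cells. A shallow cell needs a larger share of its UMIs in the 6 marker genes to meet the rule, and PBS cells were the shallower ones. The part of this in the ratios was not tested. When the rule was applied to cells thinned to 1000 UMIs, which kept 14, 27, 21 and 12 cells, the medians were -0.88 and -0.06. On the same terms the log2 ratios at 12 and 3 months were -1.73 and -0.997 for H2-D1, -2.80 and -1.35 for Smad6, -1.66 and -1.82 for Sox18, and 4.49 and 1.48 for Lrg1.

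Emcn, a mucin-like surface protein of capillaries and veins, was the 1 pan-endothelial gene that was higher at 12 months. It was at 281 CPM in 12-month bleomycin (17 of 24 cells), 417 in 3-month bleomycin (25 of 33), 101 in 12-month PBS (5 of 23) and 154 in 3-month PBS (3 of 12). The log2 ratio at 12 months was 1.39, and 2.22 without mixed cells.

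Among genes higher with bleomycin, Lrg1, a secreted glycoprotein that modifies TGF-beta signalling in vessels, was higher at both ages. It had 240 UMIs in 23 of 24 cells of 12-month bleomycin (1375 CPM), 116 in 27 of 33 cells of 3-month bleomycin (780 CPM), 8 in 4 of 23 cells of 12-month PBS (115 CPM) and 5 in 4 of 12 cells of 3-month PBS (256 CPM). The log2 ratio was 3.49 (2.57 to 4.80) and 1.48 (0.34 to 3.26), and 3.74 and 1.41 without mixed cells. AT2 cells had it at 2204, 1755, 398 and 263 CPM, and endothelial cells that were not mixed at 1548, 744, 108 and 256 CPM. At 1000 UMIs per cell Lrg1 was in 13 of 24, 17 of 33, 3 of 23 and 2 of 12 cells.

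Igfbp5, an IGF-binding protein, had 28 UMIs in 2 cells of 12-month bleomycin and 50 in 5 cells of 3-month bleomycin, against 0 in both PBS libraries. Against a floor of 3 UMIs per library this is 3.70-fold at 12 months and 2.19-fold at 3 months. The intervals of the log2 ratio reached down to 1.49 and 0.78. Ackr3, a scavenging chemokine receptor, had 44 UMIs in 16 cells of 3-month bleomycin and 0 in 3-month PBS, 1.93-fold against the floor. The interval of the Ackr3 log2 ratio reached down to 0.586. Fabp4, a fatty acid carrier of capillary and venous endothelium, had 36 UMIs in 6 cells against 0, 1.58-fold against the floor (interval from 1.22-fold). The apoptosis effector Bax had 53 UMIs in 19 cells against 0, 2.32-fold against the floor (interval from 1.82-fold).

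At 3 months the venous list had 3 of 9 tested genes higher and 0 lower, which were Lrg1, Vwf (log2 ratio 1.15) and Cpe (3.00), a prohormone-processing enzyme. Its median was 1.04, and 1.29 without mixed cells. At 12 months it had 2 of 6 higher, Lrg1 and Nr2f2 (1.84), the factor of venous identity, and 1 lower, Vcam1 (-1.76), which had 14 of its 15 UMIs of 12-month PBS in 1 cell. The 12-month median was -0.52, and 0.19 without mixed cells. Of all genes, 5.28% were higher at 3 months and 7.63% higher and 11.1% lower at 12 months. As venous-like cells were also more frequent in the bleomycin libraries, level per cell and number of cells cannot be told apart in these sums. Lrg1 was also among the genes that made a cell venous-like, so it enters both. Class lists without genes at 20 CPM or more in AT2 cells leave Lrg1 out. On these, 3 cells of 12-month bleomycin, 8 of 3-month bleomycin, 1 of 12-month PBS and 0 of 3-month PBS were venous-like.

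The highest ratios between 12-month bleomycin and 12-month PBS belonged to leukocyte genes. Tyrobp, a signalling adapter of myeloid and NK cells, had 283 UMIs in 14 cells of 12-month bleomycin and 0 in 12-month PBS. Against a floor of 3 UMIs this is 37.4-fold (interval from 30.2-fold). Ctss, Fcer1g, C1qa, C1qb, Cd52 and Ccl5, all leukocyte genes, followed. The macrophage list summed to 4463 CPM in 12-month bleomycin with 11 of 12 genes detected, 33.6 in 3-month bleomycin with 4, and 0 in both PBS libraries; without mixed cells the sums were 556 and 43.8 CPM. In 12-month bleomycin the T and NK list summed to 561 CPM, and 0 without mixed cells, and the B and plasma list to 275 CPM, and 59.6 without them. The T and NK gene Nkg7 had its 57 UMIs in 1 cell.

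Interferon-response genes at 12 months divided. Ifi27l2a was at 1381 CPM in 12-month bleomycin, 202 in 3-month bleomycin, 43.3 in 12-month PBS and 102 in 3-month PBS, and Bst2 (tetherin) at 1037, 215, 433 and 359. Gbp2 and Gbp4, interferon-induced GTPases, were lower, at 28.6 and 74.5 CPM in 12-month bleomycin, against 303 and 491 in 12-month PBS. Of the list 4 genes were higher and 2 lower of 13 tested, beside 7.63% and 11.1% of all genes, so that the share lower was near that of all genes. Its median was -0.47, and 0.15 without mixed cells, while its median in AT2 cells was 3.54. Without mixed cells the log2 ratio of Ifi27l2a was 3.27 and that of Bst2 0.044, against 4.77 and 1.24 with them. At 3 months 0 of 3 tested genes were called.

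Between the bleomycin libraries, the arterial and matrix genes Eln (elastin), Fbln5 (fibulin 5) and Gja5 were lower at 12 months. Eln was at 40.1 CPM in 12-month bleomycin (6 cells), against 504 in 3-month bleomycin (16 cells), and Fbln5 at 22.9 against 383, with log2 ratios of -3.56 and -3.91, and -3.09 and -2.86 without mixed cells. Of the 57 Fbln5 UMIs of 3-month bleomycin, 33 were in 1 cell. Gja5 had -3.04, and -2.11 without mixed cells. The arterial list had 3 of 9 tested genes lower, with a median of -0.70, and -0.068 without mixed cells. The venous list had 5 of 10 tested genes lower, where 8.65% of all 2567 were. Class I genes had 5 of 14 higher, where 5.03% of all genes were, B2m and H2-K1 among them, with a median of 0.72, and 0.92 without mixed cells. Interferon genes had 5 of 10 higher, beside the same 5.03%, with a median of 1.38, and 0.70 without mixed cells. The median of all genes was -0.19; scaling by the median of ratios moved it to 0.03 and the share of called genes that were higher to 56.8%, against 36.8%.

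Between the PBS libraries, some heat-shock genes were lower at 12 months. Of the immediate-early and heat-shock list, 1 of 9 tested genes was higher and 2 lower, where 7.67% of all 704 genes were higher and 4.4% lower. Hspa1a was at 115 CPM in 12-month PBS (8 UMIs, 4 cells) against 1383 in 3-month PBS (27 UMIs, 8 cells), a log2 ratio of -3.52. Among all genes tested, Hspb1 and Hsp90ab1 were also called lower (-3.10 and -2.37). AT2 cells did the same for Hspa1a, with 3.88 CPM in 12-month PBS and 177 in 3-month PBS, and 11.7 and 10.2 CPM in 12-month bleomycin and 3-month bleomycin. Genes of the BMP list Smad7 (-2.14) and Tgfb1 (-1.61) were lower too. Of the pan-endothelial list 1 of 18 tested genes, Cd93, was lower.

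Cycling genes were nearly absent. Mki67 and Top2a, markers of dividing cells, had 1 and 2 UMIs in 12-month bleomycin, none of them in cells that were not mixed, and 0 in the other 3 libraries. The mural list, markers of pericytes and smooth muscle, summed to 573 CPM in 12-month bleomycin with 11 of 12 genes detected, and 26.9, 57.7 and 51.2 CPM elsewhere. Acta2 had 20 UMIs in 1 cell of 12-month bleomycin. Of this list 2 of 2 tested genes were higher than in 12-month PBS, where 7.63% of all genes were. Their median log2 ratio was 2.93, and 4.41 without mixed cells. Cells of 12-month bleomycin that were not mixed thus still held mural RNA. Erythroid genes were at 0 in all 4 libraries.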

How the data were processed

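Single-cell RNA-seq was examined in 4 libraries, 1 per group. The deposited values are raw UMI counts per gene and cell barcode in 10x matrices with 27998 genes. Per the submitters' processing notes, the authors used Cell Ranger, for which no version is given there, Seurat 3.2.2 and the mm10 genome. The total per library ran between 11381566 and 36960380 UMIs, and 20 or more UMIs of a gene were required before a ratio was called.

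Cells were kept at 500 or more genes and at most 20% mitochondrial UMIs, and endothelial cells were taken by the marker rule given above. Their counts were summed per library and divided by the sum (CPM). Ratios used a prior of 0.5 counts, with exact conditional binomial intervals at 95%; a gene was called at 2-fold or more with an interval that leaves out 1. Shares have Clopper-Pearson intervals and levels exact Poisson intervals. PCR and sampling of cells are outside these intervals. For a gene at 0 in a library, the fold printed is against a floor of 3 counts of that library. Its log2 ratio, its call and list medians used the prior and not the floor. No p-value was computed.

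The genes and lists were chosen with earlier results of these data known. Named genes were, per comparison, the 10 highest and 10 lowest log2 ratios among called genes with more CPM in endothelial than in AT2 cells of the library where they are higher, without mitochondrial, ribosomal, haemoglobin, immunoglobulin, sex-linked and predicted genes; the 20 highest over AT2 cells at 100 CPM or more; and per list the 4 members with most counts and all members of short lists. Other genes in the text were chosen after their values were seen. Of 38 lists, the symbols Trac, Trbc2, Ighm, Igkc, Cavin1, Cavin2 and Foxf1a were not matched. Scrublet calls were counted and left out only as an alternative. Gene positions are on GRCm38 and promoters are from RefSeq. The steps were tested on simulated data. Python 3.11.15, numpy 2.4.6, scipy 1.17.1, pandas 2.3.3, scanpy 1.11.5, anndata 0.12.19 and matplotlib 3.10.9 were used. Alternatives changed the marker number, depth, scaling, minimum count, mixed cells, doublets and classes.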

Additional observations from a re-analysis of the deposited data

Results flagged for a closer look

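Among barcodes that did not pass the limits on genes and mitochondrial UMIs, 1 of the 3-month bleomycin library met the endothelial marker rule. Among cells just outside the rule, with 2 of the 6 markers, 4 had 7 or more of the 25 other pan-endothelial genes; 3 were in 12-month bleomycin and 1 in 12-month PBS. These barcodes and cells entered no comparison.

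Of the genes called in both bleomycin comparisons, 2 had opposite signs at the 2 ages. Psap, the precursor of the saposins of the lysosome, had a log2 ratio of 1.72 between 12-month bleomycin and 12-month PBS, and -1.29 between 3-month bleomycin and 3-month PBS; without mixed cells the ratios were -0.38 and -1.04. Gm10260, a predicted gene, had -1.20 and 1.07. The difference between the ages was not tested.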

How the results depend on the processing

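No paired analysis was possible because each group has 1 library. Leaving out mixed cells, leaving out aerocyte-like and lymphatic-like cells, the rule at 1000 UMIs, classes thinned to 1000 UMIs and the other class lists were chosen after seeing the data. Of the log2 ratios of named genes under the alternatives, 1897 kept sign and call, 460 kept the sign only and 7 reversed. These counts pool settings of unlike strength. With a minimum of 5 counts, 197 kept sign and call. Without mixed cells, 102 kept sign and call and 95 the sign only. Without cells above the median AT2-gene share, 87 kept sign and call, 105 kept the sign only and 5 reversed. With 2 of 6 markers the share of endothelial cells in 12-month bleomycin was 1.20%, with mixed cells left out 0.334% and with the rule at 1000 UMIs 0.468%. Thinned to 3000 UMIs the share was 0.717% in 3-month bleomycin, 0.206% in 12-month PBS and 0 in 3-month PBS. Without cells above the median AT2-gene share, that share's median was 1.42% in 12-month bleomycin, 1.37% in 3-month bleomycin and 1.36% in 12-month PBS. In the values that follow, list medians and gene values are log2 ratios. The counts as reported were 144 higher and 210 lower between 12-month bleomycin and 12-month PBS, 76 and 96 between 3-month bleomycin and 3-month PBS, 129 and 222 between 12-month bleomycin and 3-month bleomycin, and 54 and 31 between 12-month PBS and 3-month PBS. Without cells above the median AT2-gene share, for 12-month bleomycin against 12-month PBS, 93 genes were higher, 92 genes were lower, the sprouting list median was -0.46 and the MHC class II list median was -0.91. Between 3-month bleomycin and 3-month PBS, 27 genes were higher, 30 genes were lower, the pan-endothelial list median was 0.14, the general capillary list median was 0.0794, the VEGF list median was 0.66, the flow and tone list median was 0.20, the heat-shock list median was 1.29, the surfactant list median was -0.70, Cd93 had 0.0794 and Hilpda had 2.77. In the comparison of 12-month bleomycin and 3-month bleomycin, 80 genes were higher, 97 genes were lower, Isg15 had -0.13 and Vcam1 had 0.13. For 12-month PBS against 3-month PBS, 33 genes were higher, 12 genes were lower, the surfactant list median was -0.59 and Prss23 had 2.63. With equal weight per cell, for 12-month bleomycin against 12-month PBS, the venous list median was 0.00675. In the comparison of 3-month bleomycin and 3-month PBS, the pan-endothelial list median was 0.0277. For 12-month PBS against 3-month PBS, 32 genes were higher and 17 genes were lower. With a minimum of 50 counts, for 12-month bleomycin against 12-month PBS, 58 genes were higher and 100 genes were lower. In the comparison of 3-month bleomycin and 3-month PBS, 49 genes were lower. For 12-month bleomycin against 3-month bleomycin, 47 genes were higher and 93 genes were lower. Between 12-month PBS and 3-month PBS, 30 genes were higher and 8 genes were lower. With a minimum of 5 counts, for 12-month bleomycin against 12-month PBS, 383 genes were lower. For 3-month bleomycin against 3-month PBS, 208 genes were lower and the AT1 list median was -0.83. Between 12-month bleomycin and 3-month bleomycin, 336 genes were higher and 420 genes were lower. In the comparison of 12-month PBS and 3-month PBS, 99 genes were lower. Without mixed cells, for 12-month bleomycin against 12-month PBS, 54 genes were higher, 68 genes were lower, the arterial list median was 0.25, the venous list median was 0.19, the MHC class II list median was -1.03 and the junction list median was 0.0796. Between 3-month bleomycin and 3-month PBS, the surfactant list median was -0.25. In the comparison of 12-month bleomycin and 3-month bleomycin, 53 genes were higher, 65 genes were lower and the endothelial factor list median was 0.18. For 12-month PBS against 3-month PBS, 17 genes were lower and the surfactant list median was -0.72. With the rule at 1000 UMIs per cell, for 12-month bleomycin against 12-month PBS, 124 genes were lower and the MHC class II list median was -0.79. Comparing 3-month bleomycin and 3-month PBS, 51 genes were lower, the surfactant list median was -0.59 and the AT1 list median was -0.45. For 12-month bleomycin against 3-month bleomycin, Areg had 1.63. Between 12-month PBS and 3-month PBS, 18 genes were lower and the surfactant list median was -0.70. Without aerocyte-like and lymphatic-like cells, for 12-month bleomycin against 12-month PBS, 127 genes were lower and the MHC class II list median was -0.56. For 3-month bleomycin against 3-month PBS, 62 genes were lower and the heat-shock list median was 0.24. Without called doublets, for 3-month bleomycin against 3-month PBS, the AT1 list median was -0.0124. Comparing 12-month bleomycin and 3-month bleomycin, Nkg7 had -0.42. With median-of-ratios scaling, for 12-month bleomycin against 3-month bleomycin, 140 genes were lower. Where a value changed, the cause was not tested. Depth limits these results most in 3-month PBS, where 3 UMIs equal 153.6 CPM.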
